A study of Saccharomyces cerevisiae with 72 samples.

Results

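The 10 genes described here carry iron into the budding yeast cell: *FIT1* (YDR534C), *FIT2* (YOR382W), *FIT3* (YOR383C), *FRE1* (YLR214W), *FET3* (YMR058W), *FTR1* (YER145C), *ARN1* (YHL040C), *ARN2* (YHL047C), *SIT1* (YEL065W) and *ENB1* (YOL158C). They were taken by name, and all 10 were found among the 6660 genes of the deposited table and among the 6496 that had a value in every one of its 36 columns. The table came from a meiotic time course of diploid S288c yeast, either wild type or *kar4*Δ/Δ, grown in rich medium, then in acetate medium, and moved to sporulation medium at 0 h. RNA was sequenced at 0, 2, 4, 6, 8 and 12 h from 2 replicates of each of 36 conditions, 72 samples in all. In the endogenous strains *IME1* and *RIM4*, the master inducer of meiosis and an RNA-binding protein that acts in it, kept their own promoters. In the Pzev-*IME1* strains 1 copy of *IME1* was under the β-estradiol-inducible Pzev promoter. In the dual strains *RIM4* had the inducible promoter as well, so that both inducers were driven together. Diploids of all these genotypes are listed by the study with the Z3EV activator under the *ACT1* promoter, on both homologs in the dual strains and on 1 in the others. β-estradiol was added at transfer for overexpression, so the inducible promoter and the inducer cannot be told apart in a comparison with the endogenous strains. The *kar4*Δ/Δ strains of each background lacked both copies of *KAR4*, the yeast homolog of a subunit of the mRNA methyltransferase.

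The deposited value of a gene is the authors' log2 fold change from wild type with endogenous promoters at 0 h, which is 0 for every gene. It is called the log2 value below, and a difference between conditions is a difference of 2 log2 values. The replicates were already combined and the table holds no replicate values, errors or counts, so depth is unknown, no test could be made, and no difference can be set against the spread between replicates. Differences of at least 2-fold, 1 on the log2 scale, were counted, and each count of members is given beside the percentage of all 6496 genes that reached that size in the same direction. The label genes were checked first. *KAR4* was at −3.96 to −4.88 in *kar4*Δ/Δ with endogenous promoters from 2 to 12 h, but at −0.55 at 0 h, so the samples labelled *kar4*Δ/Δ at 0 h in this background did not show the loss of the gene. *RIM4* was already at 3.21 in the dual wild type at 0 h, against 0.23 in the dual mutant at 0 h.

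Yeast takes up iron along a reductive and a siderophore route. In the reductive route, reductases of the plasma membrane such as Fre1p make ferrous iron, and the multicopper oxidase Fet3p with the permease Ftr1p bring it in, so this route also needs copper. In the siderophore route, the mannoproteins Fit1p, Fit2p and Fit3p hold iron-siderophore complexes in the cell wall, and the transporters Arn1p, Arn2p, Sit1p and Enb1p take up the complexes intact, each preferring its own siderophores. When iron is scarce the activator Aft1p binds a core sequence in the promoters of most of these genes and raises them together. *FRE1* is also a target of Mac1p, the activator of the copper regulon.

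The letters of these core sequences were searched in the 500 bases before the start codon, on both strands, in the R64 genome, the assembly of the sacCer3 build. TGCACCC, a form of the Aft1p core, was found before 9 of the 10 members and before 2.33% of 6019 protein-coding genes. *FRE1* was the member without it. Forms other than TGCACCC and the shorter GCACCC were not searched, so a variant of the core before *FRE1* was not looked for. The shorter GCACCC lies inside TGCACCC and was found before the same 9 members and 7.59% of all genes. TTTGCTC, the Mac1p core, was found before *FRE1*, *FTR1* and *ENB1* and before 8.59% of all genes. Stretches that hold these letters are shown because the expression of the members divides between *FIT1*, *FRE1* and the other 8 genes. Not every site is shown. Another TGCACCC site of *FTR1*, on the opposite strand and beginning 365 bases before its start codon, lies outside its stretch. So do the TTTGCTC sites of *FTR1* and *ENB1*. Each is read 5′ to 3′ along its gene, from RefSeq's R64 assembly, with TGCACCC or its reverse complement in capitals, except that *FRE1* has TTTGCTC in capitals.
FIT1, chrIV:1505071-1505200, minus strand: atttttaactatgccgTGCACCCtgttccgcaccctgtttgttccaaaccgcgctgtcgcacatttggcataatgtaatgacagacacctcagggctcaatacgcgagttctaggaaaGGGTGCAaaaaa
FIT3, chrXV:1061226-1061355, minus strand: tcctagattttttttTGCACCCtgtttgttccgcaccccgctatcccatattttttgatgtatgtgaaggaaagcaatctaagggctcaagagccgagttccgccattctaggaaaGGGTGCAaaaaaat
FIT2, chrXV:1059191-1059410, plus strand: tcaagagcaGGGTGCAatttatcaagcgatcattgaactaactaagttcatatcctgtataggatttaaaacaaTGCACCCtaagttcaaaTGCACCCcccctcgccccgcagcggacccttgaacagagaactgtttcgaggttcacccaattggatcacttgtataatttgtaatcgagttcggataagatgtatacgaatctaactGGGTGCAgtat
FET3, chrXIII:388552-388591, plus strand: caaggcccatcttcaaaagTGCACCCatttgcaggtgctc
FTR1, chrV:461896-461935, minus strand: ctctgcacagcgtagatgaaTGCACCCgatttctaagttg
ARN1, chrVIII:21212-21251, minus strand: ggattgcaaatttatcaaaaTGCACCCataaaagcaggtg
ARN2, chrVIII:10634-10673, minus strand: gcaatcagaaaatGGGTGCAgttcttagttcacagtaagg
SIT1, chrV:27447-27486, plus strand: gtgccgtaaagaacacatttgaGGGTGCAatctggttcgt
ENB1, chrXV:21432-21521, minus strand: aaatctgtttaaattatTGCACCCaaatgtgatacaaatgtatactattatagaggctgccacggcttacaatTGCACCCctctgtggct
FRE1, chrXII:568267-568486, plus strand: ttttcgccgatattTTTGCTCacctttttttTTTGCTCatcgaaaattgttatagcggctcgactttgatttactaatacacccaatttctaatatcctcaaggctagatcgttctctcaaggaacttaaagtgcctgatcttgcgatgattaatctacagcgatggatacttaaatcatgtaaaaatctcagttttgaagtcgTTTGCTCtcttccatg

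The *FIT1* and *FIT3* stretches are alike. Both carry TGCACCC on the strand of the gene, beginning 284 and 285 bases before the start codon, and its reverse complement further on, beginning 182 and 184 bases before it. Over the whole 500 bases the 2 promoters matched at 302 of 465 aligned bases (64.9%), with a longest identical run of 25 bases. The coding sequences of *FIT1* and *FIT3* are 1587 and 615 bases long. They matched at 425 of 589 aligned bases (72.2%), with a longest identical run of 27 bases, so most of the *FIT1* coding sequence lay outside the alignment. *FIT2*, which codes for a smaller wall protein, had 4 copies of TGCACCC and no such likeness to either. *FRE1* had TTTGCTC 3 times, beginning 286, 269 and 96 bases before its start codon. A match of letters does not show that a factor binds.

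The genes lie on several chromosomes. *FIT2* (chrXV:1059531-1059992, plus strand) and *FIT3* (chrXV:1060441-1061055, minus strand) are neighbours that point toward each other, and *FIT1* lies at chrIV:1503314-1504900 on the minus strand. The oxidase gene *FET3* lies at chrXIII:388822-390732 and the permease gene *FTR1* at chrV:460526-461740. Of the transporter genes, *ARN1* lies at chrVIII:19088-20971, *ARN2* at chrVIII:8351-10213, *SIT1* at chrV:27657-29543 and *ENB1* at chrXV:19491-21311. *FRE1* lies at chrXII:568567-570627. *ARN1*, *ARN2* and *SIT1* are related in sequence, with 61.7% to 64.4% identical bases in their coding sequences and no identical run longer than 15 bases.

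**Figure D1:**
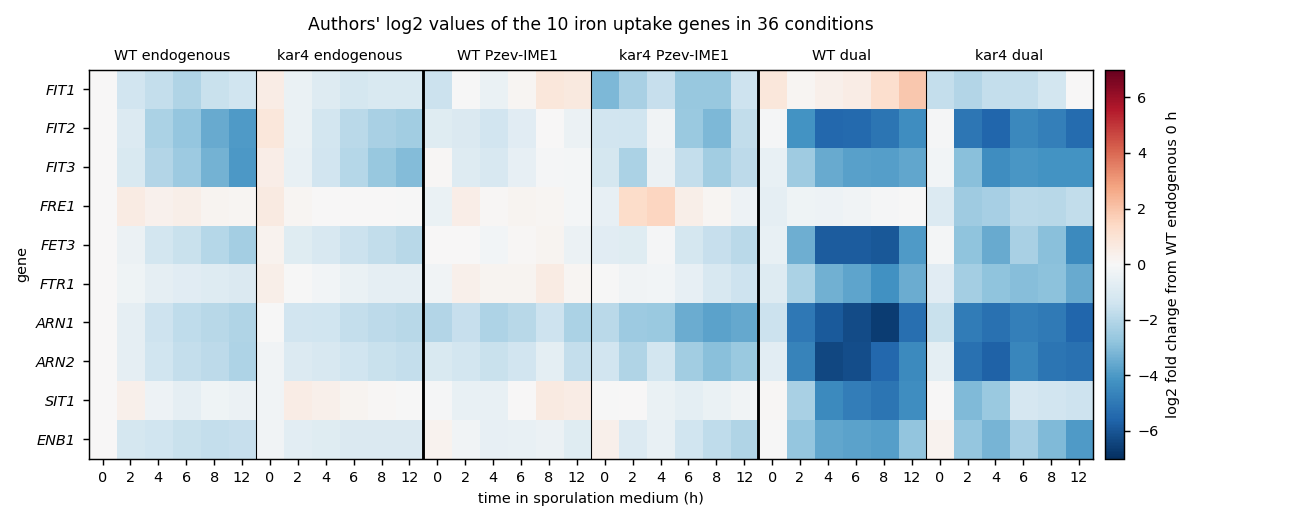
Heat map of the log2 values of the 10 iron uptake genes (rows) in the 36 conditions (columns, time in h within each strain), colored by log2 fold change from wild type with endogenous promoters at 0 h, from −7 (blue) to 7 (red). Each of the 8 genes other than *FIT1* and *FRE1* had its lowest value in a dual strain, while *FIT1* in the dual wild type was above 0 throughout.

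In wild type with endogenous promoters, transcripts for most of the iron uptake genes declined through the time course. By 12 h, 8 of the 10 members were at least 2-fold below 0 h, as were 3.96% of all genes, with a median of the members of −1.86. The cell wall mannoprotein genes had the 2 largest declines, 16.0-fold for *FIT3* and 15.4-fold for *FIT2* by 12 h. Their decline was gradual. *FIT3* had log2 values of −1.08, −2.06, −2.56, −3.30 and −4.00 at 2, 4, 6, 8 and 12 h. *FIT2* followed it with −0.96, −2.23, −2.69, −3.51 and −3.94. *FIT1* took another course, reaching −2.08 at 6 h and returning to −1.39 at 12 h.

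The oxidase gene *FET3* had log2 values of −0.42, −1.29, −1.53, −1.99 and −2.40 from 2 to 12 h, and its partner *FTR1* ended at −1.01. The siderophore transporter genes ended at −2.11 (*ARN1*), −2.16 (*ARN2*), −1.61 (*ENB1*) and −0.43 (*SIT1*). *SIT1* and *FRE1* were thus the 2 members that did not reach a 2-fold decline, and the reductase gene *FRE1* stayed between 0.16 and 0.55 from 2 h on.

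In *kar4*Δ/Δ with endogenous promoters a similar decline was seen. At 12 h, 7 members were at least 2-fold below the 0 h samples of the same label, as were 5.37% of all genes, with a median of −1.50. Because *KAR4* was not lost in those 0 h samples, the values were also read against the wild type reference, which gave 7 members, beside 2.72% of all genes, and a median of −1.37. *FIT3* ended at −3.03, *FIT2* at −2.44 and *FET3* at −1.94.

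Mutant and wild type were close in this background. The median of the members lay between 0.20 and 0.48 above wild type at the 6 time points. The ends of this range came from 2 h and 4 h, not from the 0 h samples in which *KAR4* was not lost. *FIT2* alone was at least 2-fold apart at 12 h, 1.51 higher in the mutant, a size and direction shared by 1.09% of all genes. *FIT3* was 0.97 higher and *FET3* 0.46 higher at that time. The columns differ in spread, and when they were brought to a common distribution by quantile normalization the *FIT2* difference at 12 h became −0.05 and the median of the members −0.09, so the direction rests on the scale of the columns.

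**Figure D2:**
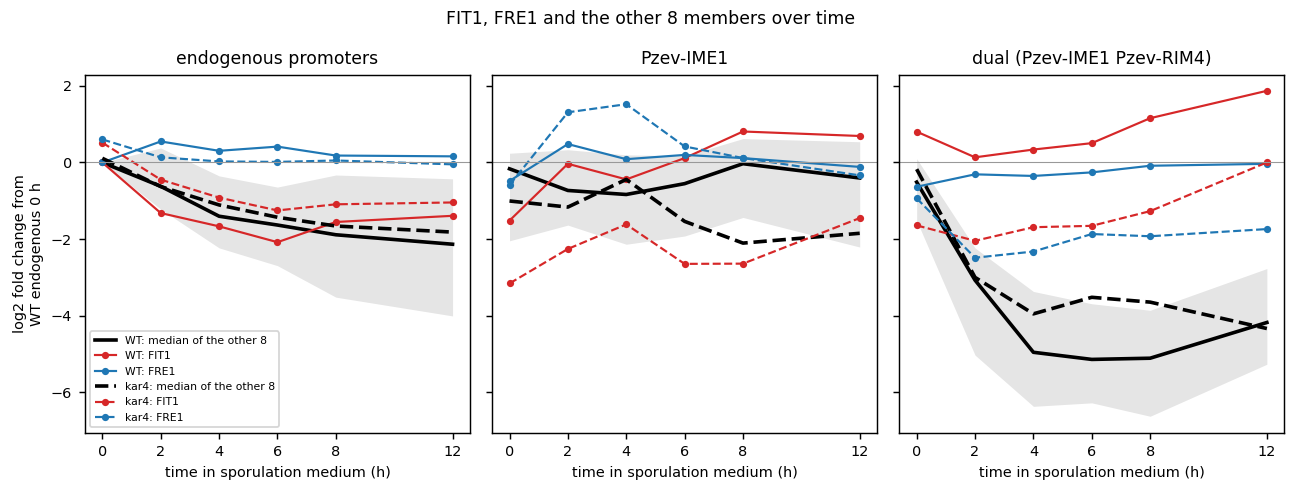
Log2 values against time in sporulation medium (h) in the 3 promoter backgrounds, for wild type (solid) and *kar4*Δ/Δ (dashed), with *FIT1* in red, *FRE1* in blue and the median of the other 8 members in black. The grey band is the range of those 8 in wild type. With endogenous promoters the median of the 8 in wild type was −2.13 at 12 h. It lay between −0.83 and −0.03 in Pzev-*IME1* wild type and reached −5.14 at 6 h in the dual wild type, where *FIT1* was at 1.87 at 12 h.

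When *IME1* was induced in wild type, the decline was absent from the median of the members. At 12 h against 0 h, 1 member was at least 2-fold lower and 1 higher, where 14.5% and 25.2% of all genes were. The lower 1 was *ENB1*, from 0.24 to −0.85. *ARN1* was low throughout, at −2.04 at 0 h and −2.21 at 12 h, against −2.11 at 12 h with endogenous promoters. The median of the 10 members lay between −0.53 and 0.07 at all 6 times. At 8 h, 7 members were at least 2-fold higher than in wild type with endogenous promoters, as were 7.76% of all genes, with a median of 1.35. *FIT2* was 3.53 higher, *FIT3* 3.22 higher, *FIT1* 2.36 higher and *FET3* 2.17 higher. *FIT2* was at −0.84, −1.03, −1.36, −0.78 and 0.02 in Pzev-*IME1* wild type at 0, 2, 4, 6 and 8 h. It was thus more than 2-fold below the reference at 2 and 4 h and near it at 8 h, where it was at −3.51 with endogenous promoters.

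Some members differed before induction. At 0 h the triacetylfusarinine and ferrichrome transporter genes *ARN2* and *ARN1* were at −1.06 and −2.04 in Pzev-*IME1* wild type, and *FIT1* was at −1.52. *ARN1* was low at 0 h in all 4 strains with an inducible promoter, between −1.52 and −2.04. From its low start *FIT1* reached 0.81 at 8 h and 0.69 at 12 h. Over all genes, 16.7% were at least 2-fold lower at 0 h in Pzev-*IME1* wild type than in the reference.

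In this background the iron uptake genes were lower without *KAR4*, mainly from 6 h on. The median of the members in the mutant minus wild type was −0.18 at 0 h, −0.75 at 2 h, 0.07 at 4 h, −1.09 at 6 h, −1.99 at 8 h and −1.35 at 12 h. At 2 h, 2 members were at least 2-fold lower in the mutant, *FIT1* and *FIT3*, where 7.80% of all genes were, and 1 member, *FIT1*, after quantile normalization. At 6 h there were 6, against 3.34% of all genes. At 8 h there were 9, against 3.86%, and at 12 h 7, against 5.37%. The 9 members at 8 h were all but *FRE1*, which was 0.11 in wild type and 0.12 in the mutant.

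The wall mannoprotein genes were furthest apart at 8 h. *FIT1* was at 0.81 in wild type and −2.64 in the mutant, a 10.9-fold difference. *FIT2* was at 0.02 and −3.17, and *FIT3* at −0.08 and −2.42. The transporter gene *ARN1* was at −1.43 and −3.74, and *ARN2* at −0.69 and −2.90. Smaller differences were seen for *FET3*, at 0.18 and −1.60, for *FTR1*, at 0.55 and −1.13, for *ENB1*, at −0.39 and −1.79, and for *SIT1*, at 0.62 and −0.48.

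The 4 h samples broke the course of the mutant. In *kar4*Δ/Δ Pzev-*IME1*, *FIT2* was at −1.39 at 2 h, −0.23 at 4 h and −2.61 at 6 h, and *FIT3* was at −2.23, −0.42 and −1.67. *FRE1* reached 1.52 in the same samples, its highest log2 value in any condition and 1.43 above wild type. With the replicates combined, this excursion could not be checked between replicates.

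**Figure D3:**
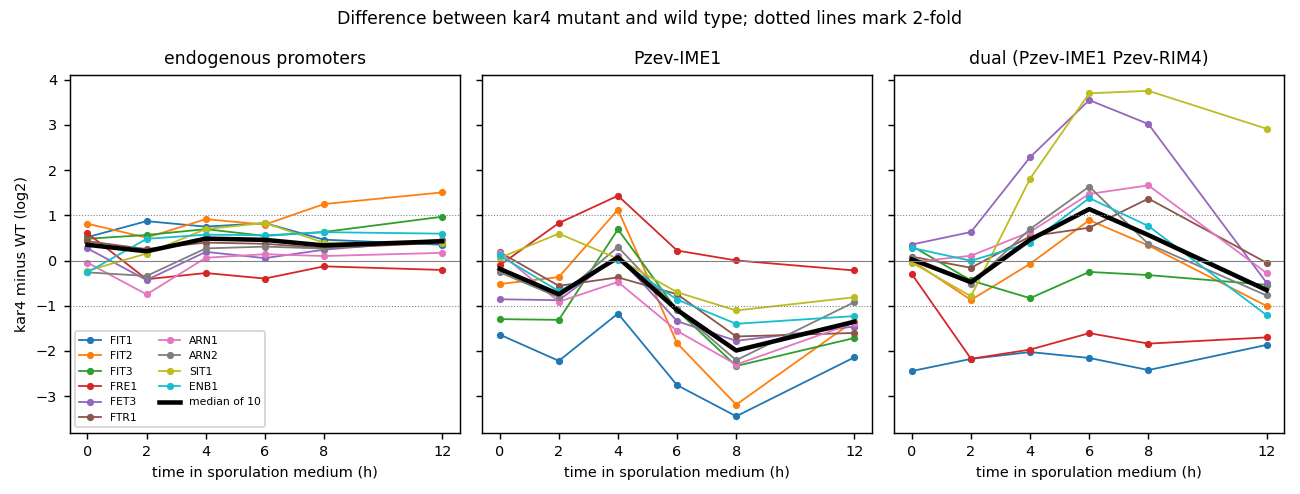
Log2 value in *kar4*Δ/Δ minus that in wild type, against time in sporulation medium (h) for each of the 10 genes in the 3 promoter backgrounds, with the median of the 10 in black and dotted lines at a 2-fold difference. The median reached −1.99 at 8 h in Pzev-*IME1* and 1.14 at 6 h in the dual strains, where *FET3* and *SIT1* were more than 3 log2 units above wild type while *FIT1* and *FRE1* were below it.

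All members but *FIT1* had their lowest log2 value in a dual strain. In wild type, 8 members were at least 2-fold below 0 h after only 2 h, as were 8.14% of all genes, with a median of −2.52. In *kar4*Δ/Δ there were 9, as were 11.2% of all genes, with a median of −2.83. *FIT2* was 17.2-fold, *ARN2* 15.2-fold, *ARN1* 11.4-fold and *FET3* 7.60-fold lower in wild type at 2 h than at transfer. The 8 were *FET3*, *FTR1*, *FIT2*, *FIT3* and the 4 transporter genes, and the 2 members outside them were *FIT1*, at 0.13, and *FRE1*, at −0.31.

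The decline went on in the wild type. *FET3* had log2 values of −0.51, −3.44, −5.83, −5.82, −5.95 and −3.98 at 0, 2, 4, 6, 8 and 12 h. *ARN1* reached −6.62 at 8 h, the lowest value of any member in any condition, and *ARN2* −6.36 at 4 h. *SIT1*, which had hardly moved with endogenous promoters, went from 0.10 at 0 h to −5.10 at 8 h. All 8 genes were higher again at 12 h than at 8 h.

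Set against the Pzev-*IME1* strains at the same time, which lack the inducible *RIM4* and, in the study's strain list, carry the activator on 1 homolog rather than both, the dual wild type had 8 members at least 2-fold lower at 2 h (median −2.50, 10.5% of all genes) and 8 at 8 h (median −4.79, 17.3% of all genes). *FET3* was 70.2-fold lower at 8 h, *SIT1* 52.8-fold, *ARN1* 36.4-fold and *FIT2* 35.1-fold. In *kar4*Δ/Δ the same comparison gave 8 members at 2 h (median −2.27, 11.2% of all genes) and 8 at 8 h (median −1.47, 6.87% of all genes). These were not the same 8 genes as in wild type. *FRE1* was among them at both times, at −3.79 and −2.04. *FIT3* (−0.69) was not among them at 2 h, nor *SIT1* (−0.86) at 8 h. *FIT1* was on the other side in the mutant at 8 h, 1.37 higher in the dual strain. These comparisons share the Pzev-*IME1* columns with those above. At each time from 2 h on the dual wild type column had the widest spread over all genes, and after quantile normalization the median in wild type at 8 h was −2.56 and the mutant had 4 members rather than 8 at 8 h.

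In the dual strains the members differed in opposite directions between mutant and wild type. At 6 h the mutant was at least 2-fold higher for 5 members, *FET3*, *SIT1*, *ARN1*, *ARN2* and *ENB1*, where 10.7% of all genes were, and at least 2-fold lower for 2, *FIT1* and *FRE1*, where 11.1% of all genes were. *FET3* was at −5.82 in wild type and −2.27 in the mutant, and *SIT1* at −4.86 and −1.16. *SIT1* stayed apart to the end, at −4.37 in wild type and −1.45 in the mutant at 12 h, whereas *FET3* had closed to −3.98 and −4.48. At 12 h 4 members were at least 2-fold lower in the mutant, *FIT1*, *FIT2*, *ENB1* and *FRE1*, as were 25.2% of all genes. *NDT80*, for the activator of the middle genes of meiosis, differed by −4.76 between the same 2 columns and by −4.28 at 6 h. Between the Pzev-*IME1* strains it differed by −0.23 at 8 h and −1.89 at 12 h. The part of *NDT80* in these results was not tested. After quantile normalization *FET3* and *SIT1* were still at least 2-fold higher in the mutant at 6 h, by 1.87 and 1.93, and *FIT1* and *FRE1* at least 2-fold lower, at −1.74 and −1.40. *ARN1*, *ARN2* and *ENB1* were then under 2-fold, and the median of the members moved from 1.14 to 0.10, while the count at 12 h went from 4 to 1.

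Over the 36 columns the log2 values of the 8 other members moved together, with Pearson's r between 0.64 and 0.97 over their 28 pairs. *FIT1* had r between −0.36 and 0.08 with the other 9, and *FRE1* between 0.33 and 0.57 with the 8. The columns share a reference and several come from the same strain, so these coefficients are descriptions and carry no test. *FIT1* and *FRE1* were set apart from the 8 by these same values, so the contrast is partly built in.

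*FIT1* was above 0 at every time in the dual wild type, at 0.80, 0.13, 0.34, 0.50, 1.16 and 1.87, while its relative *FIT3* went from −0.51 to −3.65. The 2 promoters hold the same TGCACCC pair at nearly the same places, as printed above. In the dual mutant *FIT1* was at −1.64, −2.04, −1.69, −1.65, −1.27 and 0.00. The mutant was thus below wild type at all 6 times, with differences of −1.87 to −2.45. After quantile normalization they were −0.72 at 12 h, under 2-fold, and −1.53 at 8 h. In the Pzev-*IME1* strains it was also below at all 6 times, with differences of −1.17 to −3.45. With endogenous promoters it was above at all 6 times, with differences of 0.35 to 0.87. The 0 h samples of this background are those in which *KAR4* was not lost, and without 0 h the mean difference with endogenous promoters was 0.65. In the inducible strains the difference was there already at 0 h, at −2.45 in the dual and −1.64 in the Pzev-*IME1* background.

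*FRE1*, the reductase gene without TGCACCC in its printed stretch, stayed between −0.63 and −0.04 in the dual wild type. In the dual mutant it was at −2.48 at 2 h and still at −1.74 at 12 h. The high-affinity copper transporter gene *CTR1*, whose promoter also holds TTTGCTC, had a like course. It was at −1.03 in wild type and −3.27 in the mutant at 2 h, and at 0.62 and −3.27 at 12 h. The reductase gene *FRE7*, known as a target of Mac1p, was at −0.32 and −2.45 at 2 h, but at −1.60 and −1.17 at 12 h. TTTGCTC was not found in the 500 bases before *FRE7*. In 1000 bases it was found before *FRE7*, before 4 of the 10 members and before 16.3% of all genes. Within 500 bases it was found before *FTR1* and *ENB1*, which were among the 8 members that declined in the dual wild type. *FRE1* correlated with *CTR1* at r = 0.83 and with *FRE7* at r = 0.75 over the 36 columns. *CTR1* and *FRE7* were set beside *FRE1* after their values were seen. Of 4 genes of copper uptake and its activator, *CTR1* was at least 2-fold lower in the dual mutant at 12 h. *MAC1*, the gene for Mac1p, was 1.54 higher and *CTR2* 1.07 higher. Over all genes 25.2% were lower by that size and 17.9% higher. The part of Mac1p was not tested.

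The 10 genes outside the members whose log2 values correlated best with the mean of the 10 members over the 36 columns were led by YHL046W-A (r = 0.97), an identifier absent from the annotation used. Its row nearly repeats that of the member *ARN2*, with r = 0.999 and a median gap of 0.09 log2 units between the 2 over the 36 columns. It was followed by *TIS11* (0.93), *MRS4* (0.89), *NMA1* (0.88) and *CTR2* (0.87). *COX17* (0.86), *TIM9* (0.86), *MRPL39* (0.86), *RPS22B* (0.85) and YEL020C-B (0.85) came next, the last of them also absent from the annotation and nearly a repeat of the *TIM9* row (r = 0.99, median gap 0.08). Whether such rows were counted from the same reads was not tested. Tis11p, also called Cth2p, promotes decay of mRNAs for iron-using proteins when iron is scarce, and Mrs4p carries iron into mitochondria. By Spearman's rank correlation only 3 of the 10 were still among the best 10, YHL046W-A, *TIS11* and *NMA1*.

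*TIS11* and *MRS4* declined with the members in the dual strains. Both were named above for following the members over the 36 columns, which include the dual ones, so this likeness was built in. *TIS11* was at −0.26 at 0 h, −3.72 at 2 h, −5.31 at 4 h and −2.47 at 12 h in the dual wild type. Its promoter holds TGCACCC on both strands, as this stretch shows.
TIS11, chrXII:416814-416923, minus strand: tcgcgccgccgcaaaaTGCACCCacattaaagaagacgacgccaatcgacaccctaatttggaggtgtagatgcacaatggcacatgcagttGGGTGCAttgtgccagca
*MRS4* went from −0.29 at 0 h to −2.91 at 2 h in the dual wild type and from 0.11 to −2.56 in the mutant. In Pzev-*IME1* at 8 h, *TIS11* was at 0.01 in wild type and −2.28 in the mutant, a difference of the size seen for *FIT3* and *ARN1*.

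**Figure D4:**
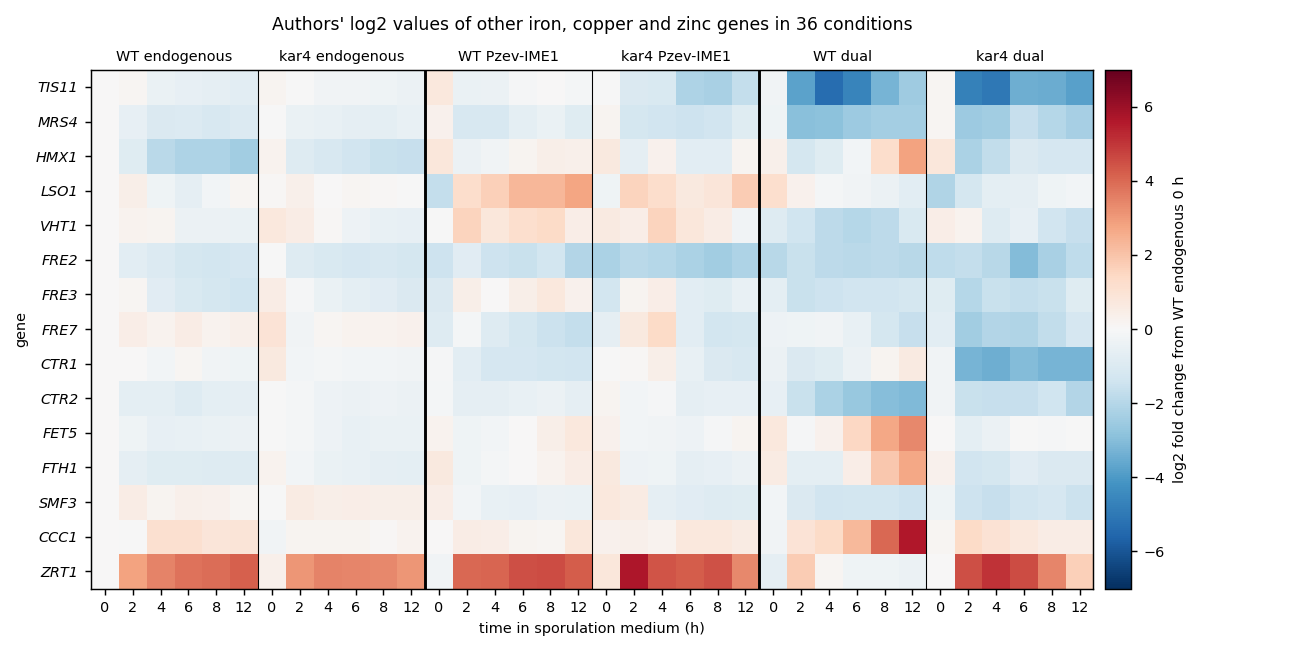
Heat map of the log2 values of 15 other iron, copper and zinc genes (rows) in the 36 conditions (columns, time in h within each strain), colored by log2 fold change from wild type with endogenous promoters at 0 h, from −7 (blue) to 7 (red). *TIS11* and *MRS4* are low in the dual strains from 2 h on, *CTR1* is low in the dual mutant, and *CCC1*, *FET5* and *FTH1* are at 5.61, 3.34 and 2.71 in the dual wild type at 12 h.

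The decline did not extend to every gene of iron handling. In wild type with endogenous promoters at 12 h, 3 of 9 other genes of reductive uptake were at least 2-fold lower than at 0 h. They were *FRE3* (−1.38), *FRE2* (−1.20) and *ATX1* (−1.18), and the list median was −0.82. Over all genes, 3.96% were at least 2-fold lower and 6.33% at least 2-fold higher. *FRE2* and *FRE3* code for reductases, of ferric ions and of siderophore-bound iron, and *ATX1* for a copper chaperone. TGCACCC was found before 8 of these 9 genes. Of 12 intracellular genes of the iron regulon, 1 was lower and 1 higher: *HMX1*, for heme oxygenase, was at −2.43, and *ISU2*, for a scaffold of iron-sulfur cluster assembly, at 1.10. None of 5 genes of vacuolar iron transport and storage reached 2-fold.

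In the dual wild type at 2 h against 0 h, 5 of the 12 intracellular regulon genes were at least 2-fold lower and none higher. *TIS11* (−3.47), *MRS4* (−2.62) and *HMX1* (−1.57) fell most, with a list median of −0.67. Over all genes 8.14% were at least 2-fold lower. None of the 9 other genes of reductive uptake reached 2-fold in wild type. In *kar4*Δ/Δ 4 of the 9 were at least 2-fold lower at 2 h than at 0 h, where 11.2% of all genes were, with *CCC2*, for the copper transporter that supplies Fet3p, at −1.77, *FRE7* at −1.71 and *FRE8* at −1.25. In wild type *AFT1*, the gene for the activator, differed by −1.39 and *GRX4*, for a glutaredoxin that restrains Aft1p, by 1.58. *ISA1*, for iron-sulfur cluster assembly, differed by 2.11. Set against Pzev-*IME1* wild type at 2 h, *GRX4* was on the other side in the dual wild type, at −1.25. It was the only 1 of 7 iron regulators to reach 2-fold there, where 10.5% of all genes were lower. The part of these regulators in the decline was not tested.

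*FRE5* shares its upstream region with *FIT3*, from which it is transcribed away, and the 2 TGCACCC sites printed for *FIT3* lie 331 and 230 bases before the *FRE5* start codon. The 2 genes parted in the dual wild type. *FRE5*, looked up after the values of *FIT3* were seen, was at −0.86, −0.74, −0.49, 0.23 and 1.00 from 2 to 12 h, while *FIT3* was at −2.48, −3.52, −3.82, −3.87 and −3.65.

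Late in the course of the dual wild type some genes that move iron into or out of the vacuole differed in the other direction from the members. At 2 h against 0 h, 2 of the 5 genes of vacuolar transport and storage were at least 2-fold lower, *FTH1* (−1.29) and *COT1* (−1.04). *CCC1* was then 1.21 higher. Over all genes 8.14% were at least 2-fold lower and 11.7% at least 2-fold higher. At 8 h against Pzev-*IME1*, 3 of the 5 were at least 2-fold higher, as were 19.1% of all genes: *CCC1*, the importer that stores iron in the vacuole, by 3.90, the oxidase gene *FET5* by 2.31 and its permease gene *FTH1* by 1.65. At 12 h *CCC1* was at 5.61 in wild type and at 0.52 in *kar4*Δ/Δ, and in the mutant 4 of these 5 were lower by at least 2-fold. *HMX1* was at 2.80 in the dual wild type at 12 h and at −1.19 in the mutant. These values stand beside the 25.2% of all genes given above for the same comparison.

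In Pzev-*IME1* at 8 h, 4 of the 9 other genes of reductive uptake and 4 of the 12 intracellular regulon genes were at least 2-fold lower in the mutant, and none of either list was at least 2-fold higher. Over all genes 3.86% were at least 2-fold lower. *FRE3* differed by −1.59, *FRE5* by −1.24 and *FRE2* by −1.16. *TIS11* differed by −2.30, *BIO5*, for a biotin precursor transporter, by −1.66, and *LSO1*, a gene of the iron response, by −1.47. None of the genes of vacuolar transport, low-affinity metal uptake, heme synthesis, iron-sulfur cluster assembly, copper uptake, zinc uptake or the iron regulators reached 2-fold in either direction. The list medians were −0.76 for reductive uptake and −0.60 for the intracellular regulon, beside −1.99 for the 10 members.

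Of 5 genes of zinc uptake and its regulator *ZAP1*, 2 were at least 2-fold above 0 h by 12 h in the endogenous wild type, as were 6.33% of all genes. *ZRT1*, the high-affinity zinc transporter gene, was at 4.17 there, where the members had declined, and at 4.59 in Pzev-*IME1* wild type at 8 h. In the dual strains at 6 h it was at −0.29 in wild type and 4.57 in the mutant, 4.86 higher. *ZRT2* was 1.95 higher, again 2 of the 5, where 10.7% of all genes were at least 2-fold higher. In the dual wild type against Pzev-*IME1*, some zinc genes were at least 2-fold lower, like most members. At 2 h these were 2 of the 5, where 10.5% of all genes were. At 8 h they were 3, where 17.3% of all genes were, with *ZRT1* at −4.88, *ZRT2* at −2.90 and *ZAP1* at −1.24.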

How the data were processed

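RNA was sequenced from 72 samples, 2 for each of 36 conditions. Alignment by the authors was to sacCer3 with BWA-MEM and counting per gene was with htseq-count. The authors ran DESeq2 for the deposited log2 fold change of every condition over the endogenous wild type at 0 h, with replicates combined. Versions and the strand setting are not given in the sources used here. These columns are the only values in the table, so they were used as levels, although they are the authors' own comparison with 1 reference. The table's 16 unnamed columns were not used, and 164 genes lacking a value in some column were left out. The study calls the replicates biological.

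Differences between columns, counts at 2-fold, medians and correlations were computed in Python 3.11.15 with pandas 2.3.3 and numpy 2.4.6, after the counting and normalization functions were tested on simulated data. Depth, and so precision, is unknown. In all, 72 comparisons of columns were computed and the counts of 16 are given. The tested alternatives were quantile normalization, centring on column medians, a 4-fold size, the mean and Spearman's correlation. Measuring a change against the wild type reference in place of a strain's own 0 h column was added after seeing the data.

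The members and the 9 pathway lists (65 genes) were chosen with earlier results of these data known. Genes named were the members, up to 3 genes a list with the largest differences of at least 2-fold in a comparison described, the 10 most correlated genes and *KAR4*, *RIM4* and *NDT80* as checks of the samples. Those named after their values were seen are marked. Of the table's 6660 identifiers, 5986 matched RefSeq locus tags. Promoter letters were read from RefSeq's R64 genome with Biopython 1.88, upstream of the coding start.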

Additional observations from a re-analysis of the deposited data

Results flagged for a closer look

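*FIT1*, one of the cell wall mannoprotein genes, stood out because mutant and wild type differed in opposite directions between backgrounds, at every one of the 6 times. The mean over the 6 times of the *kar4*Δ/Δ minus wild type difference was 0.63 with endogenous promoters, −2.23 in Pzev-*IME1* and −2.18 in the dual strains. Without the 0 h columns the means were 0.65, −2.35 and −2.13. After quantile normalization the 3 means were 0.76, −2.11 and −1.77, and the dual difference at 12 h was −0.72. The means of its relatives also changed direction: *FIT2* was at 0.96, −1.02 and −0.12 and *FIT3* at 0.65, −1.18 and −0.34, in the same order of backgrounds. Both were higher in the mutant at 6 of 6 times with endogenous promoters and lower at 5 of 6 in Pzev-*IME1*. The 6 times with endogenous promoters include the 0 h samples in which *KAR4* was not lost. Without 0 h the means with endogenous promoters were 0.995 for *FIT2* and 0.68 for *FIT3*. After quantile normalization *FIT2* was higher at 5 of 6 times with endogenous promoters and lower at 4 of 6 in Pzev-*IME1*. *FIT3* was then higher at 3 of 6, with a mean of 0.21, and lower at 5 of 6. The agreement over times in these relatives thus rests in part on the scale of the columns. The difference between backgrounds was not tested, because the replicates are combined in the table.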

How the results depend on the processing

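No paired analysis was possible because the table holds no replicate values, and for the same reason no replicate could be left out. Of 105 alternative values, 85 stayed within 1.5 times the count or 1 log2 unit of the median. Among these, 1 median changed sign, that of *kar4*Δ/Δ minus wild type with endogenous promoters at 12 h, from 0.43 to −0.09 under quantile normalization. Centring and the mean moved nothing further than that, nor did the wild type 0 h reference. Quantile normalization moved the 12 h median of *kar4*Δ/Δ with endogenous promoters to −2.56, the wild type dual minus Pzev-*IME1* median at 8 h to −2.56 and the dual mutant minus wild type median at 6 h to 0.10. It also left 0 members at least 2-fold higher in the endogenous mutant at 12 h, 1 lower in the Pzev-*IME1* mutant at 2 h, 4 lower in the dual against the Pzev-*IME1* mutant at 8 h, 2 higher in the dual mutant at 6 h and 1 lower at 12 h. The cause was not tested. A 4-fold size by construction lowered the counts: to 5 and 3 for the 12 h decline in wild type and mutant with endogenous promoters, to 0 for their difference at 12 h, to 4 for Pzev-*IME1* over endogenous promoters at 8 h, to 1, 1, 5 and 1 for the Pzev-*IME1* mutant at 2, 6, 8 and 12 h, to 2 for dual against Pzev-*IME1* in the mutant at 8 h, and to 2 and 0 for the dual mutant at 6 and 12 h. By Spearman's correlation 3 of the 10 most alike genes were shared. Depth is unknown, so low counts behind any value cannot be seen.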
